A study of Mus musculus with 28 samples.

Results

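The 48 genes described here are genes that macrophages and monocytes of mouse tumors are known to express, taken as a named set from the 18509 rows of the expression table that carry a gene symbol, out of 43143 rows in all. A row was a member when its symbol was among those names, and each of the 48 names was found with exactly 1 row. The tumors came from 3LL cells (the Lewis lung carcinoma line of the mouse) placed under the skin of both flanks of 6-week-old male albino C57BL/6 mice and collected on day 10. In Experiment A, wild-type (WT) cells grew in the left flank and KEAP1-KO cells in the right. In Experiment B, KEAP1-KO cells grew in the left flank and KEAP1-NRF2 double-knockout (DKO) cells in the right, so genotype and flank changed together in each experiment. KEAP1-KO cells carry a homozygous frameshift insertion in exon 2 of Keap1, and DKO cells carry in addition an edit in exon 5 of Nfe2l2, the gene of NRF2. Each knockout was studied as a clone grown from a single colony, and the host mice, whose cells supply the macrophages, were not edited. RNA was read from 16 tumors, 4 in each of the 4 groups, and from 12 libraries of the same 3 kinds of cells in culture, 4 of each.

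KEAP1 hands NRF2 over for degradation, so cells without KEAP1 accumulate NRF2 and switch on its antioxidant targets, and removal of NRF2 as well takes that response away. Macrophages are phagocytes that descend from blood monocytes or from precursors seeded before birth, and their identity depends on the transcription factor PU.1, the product of Spi1. They bind antibody-coated particles through Fc receptors, whose activating members signal through the adaptor Fcer1g, use Tyrobp as the adaptor of receptors such as Trem2, recognise microbial and cellular debris through Toll-like, lectin and scavenger receptors, and kill with lysozyme, reactive oxygen and nitric oxide. Monocytes newly arrived in a tumor and long-resident macrophages use partly different genes of this set, and several members, among them Ptprc, Itgam, Cybb, Ncf1 and Plac8, are also used by neutrophils and other leukocytes. In bulk tumor RNA, fewer cells of a type and less RNA per cell cannot be told apart.

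Levels are on the deposited scale, log2(normalized count + 4), where 2 means no reads, and a difference on this scale understates the change of genes near 2. Tumor libraries held between 4222365 and 6048425 reads and cell libraries between 5808998 and 7524264. Nqo1, a direct NRF2 target, lay between 11.93 and 12.51 in the 8 KEAP1-KO tumors and between 5.25 and 7.06 in the 8 WT and DKO tumors. Keap1 itself lay between 8.78 and 8.98 in WT tumors and between 7.13 and 7.86 in the other 12 tumors, while Nfe2l2, listed as a processed transcript, lay between 5.41 and 6.33 in all 16, and an exon edit need not change the amount of RNA. The extraction label names mouse liver. The hepatocyte gene Alb reached at most 6.76 normalized counts in any library, and Ptprc, Itgam, Lyz2 and Mrc1 lay above 6 in each tumor, so the tumor titles were followed. Only 15 of the 48 members were listed as a whole-gene row, 15 as a retained intron, 8 as a protein-coding transcript, 7 as a processed transcript and 3 as a nonsense-mediated decay transcript.

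To set aside genes that the cancer cells express themselves, a member was counted as expressed by cultured cells when the highest mean of the 3 cell groups reached 10% of its mean over the 16 tumors. This held for 8 members (Itgax, Itgb2, Cd68, Cx3cr1, Trem2, Cd14, Tlr4 and Spp1), which are described apart. Of the 48 members, 34 stayed under 5 normalized counts in each of the 12 cell libraries and 12 had no read in any of them. In the tumors 47 members reached 5 normalized counts in at least 4 libraries and were tested; Tlr4, the lipopolysaccharide receptor, did not. All but Marco of these 47 would have been tested without the WT tumors.

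The mean score, the average log2 value of the 40 tested members below the 10% limit in culture, was 8.0, 7.91, 7.81 and 7.58 in WT tumors and 5.77, 5.68, 5.70 and 6.04 in the KEAP1-KO group of the same experiment. It was 6.42, 6.55, 6.39 and 6.69 in KEAP1-KO tumors and 7.57, 7.42, 7.73 and 7.17 in DKO tumors of Experiment B. Within both experiments the KEAP1-KO tumors lay apart from and below the tumors of the opposite flank. The group means were 7.83 ± 0.18 (SD, n = 4) for WT, 5.80 ± 0.17 and 6.51 ± 0.14 for KEAP1-KO in Experiments A and B, and 7.47 ± 0.24 for DKO. The score was thus lower by 2.03 log2 units in KEAP1-KO than WT tumors, and higher by 0.96 in DKO than KEAP1-KO tumors. Cultured cells had scores of 2.18 ± 0.04 (WT), 2.25 ± 0.04 (KEAP1-KO) and 2.23 ± 0.03 (DKO), near the value of 2 that stands for no reads. No test was applied to the score, since the members were chosen with earlier results of these data known.

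**Figure D1:**
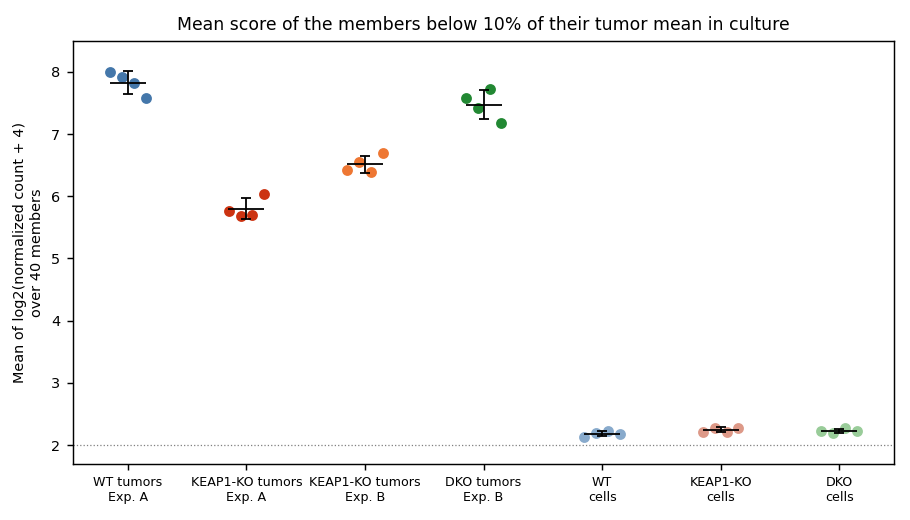
Mean log2(normalized count + 4) over 40 member genes, 1 point per library, for the 4 tumor groups and 3 cell groups; bars are the mean ± SD of 4 libraries and the dotted line at 2 marks no reads. The 4 WT tumors sit between 7.58 and 8.0 and those of KEAP1-KO in Experiment A between 5.68 and 6.04, the KEAP1-KO tumors of Experiment B lie between these ranges, and the DKO tumors overlap the WT tumors.

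In Experiment A, 43 of the 47 tested members fell in KEAP1-KO tumors and 0 rose (limma, Benjamini-Hochberg adjusted p under 0.05 over all rows). Among all 34215 rows tested, 7.49% were called lower and 5.61% higher, and among the 15503 rows with a symbol 12.8% were called lower. The median difference of the members was -1.87 log2 units, against -0.03 over all rows. For 41 members the 4 KEAP1-KO tumors all lay below the 4 WT tumors, a separation that 9.05% of all rows showed. The 4 members without a call were Cd14, Cd163, Marco and Spp1.

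In Experiment B, 31 of the 47 members rose in DKO tumors and 0 fell. All rows gave 4.22% higher and 4.64% lower, and rows with a symbol 6.72% higher. The median over the members was 0.86, with 43 members above 0. In 33 members the DKO tumors lay wholly above the KEAP1-KO tumors, which 7.14% of all rows did. Altogether 29 members fell in Experiment A and rose in Experiment B, 14 fell in A without a call in B, 2 (Cd14 and Spp1) rose in B without a call in A, and Cd163 and Marco were called in neither. Both KEAP1-KO group means lay below both other group means for 42 of the 48 members. By kind of row, 14 of 15 whole-gene rows fell in A and 12 rose in B, while of 15 retained-intron rows 13 fell in A and 7 rose in B; whether the kind of row plays a part was not tested.

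**Figure D2:**
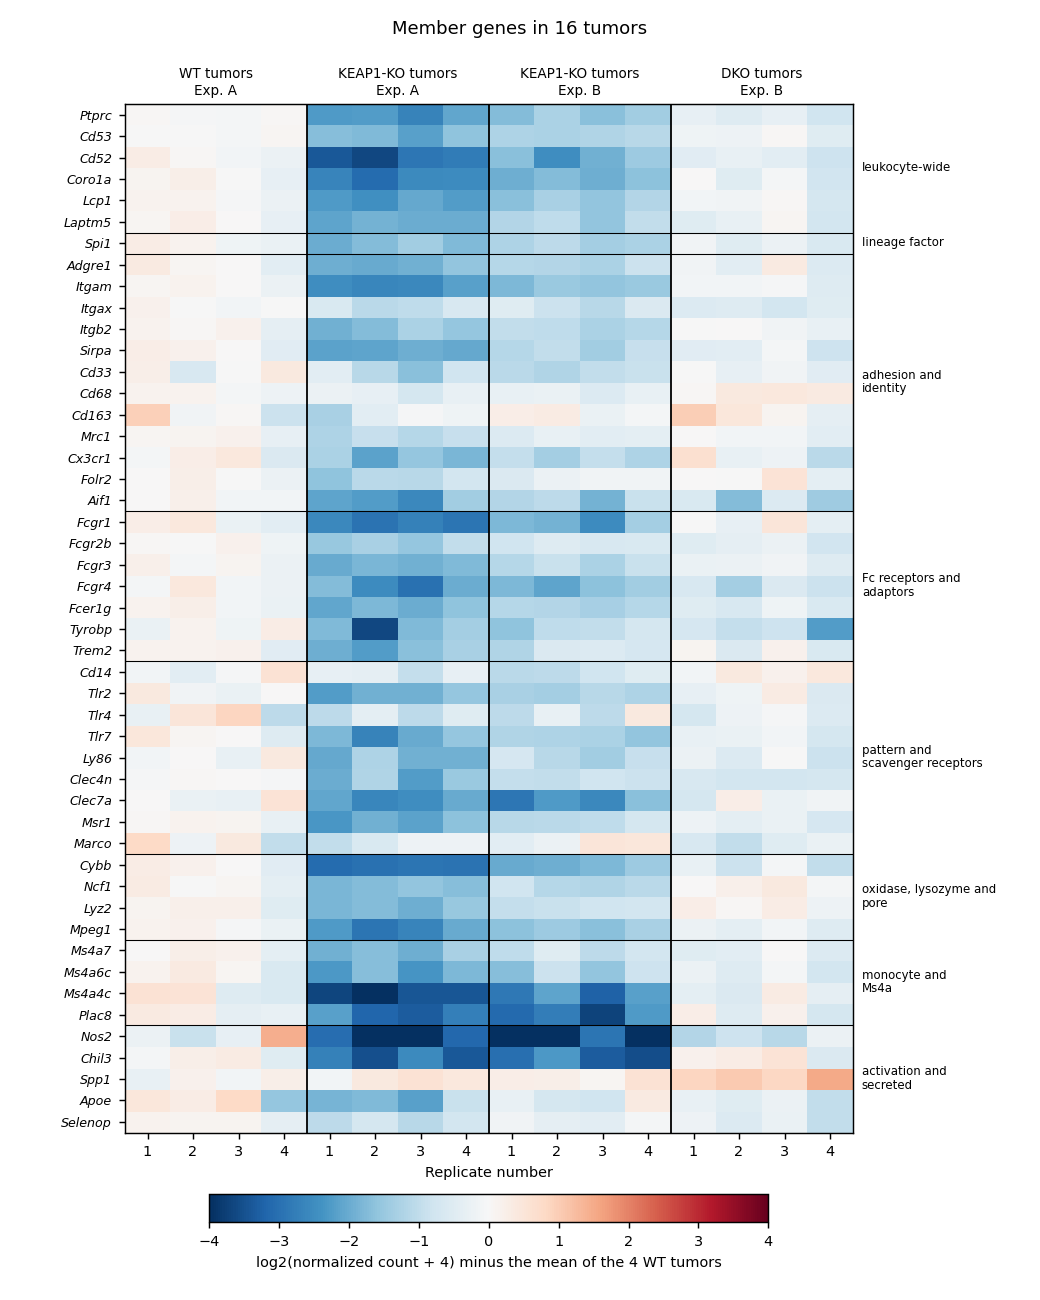
Log2(normalized count + 4) of each member in each tumor after subtraction of its mean over the 4 WT tumors, with members in rows by role and tumors in columns; the colour scale ends at 4 log2 units in either direction. The KEAP1-KO columns of Experiment A are the darkest blue, those of Experiment B are paler for most rows, and Spp1 is red in the DKO columns.

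The upstream sequence is shown for the 3 members with a whole-gene row that fell most in Experiment A among those called in both experiments, where a RefSeq promoter window free of annotated exons was at hand: Chil3, Cybb and Mpeg1. Each run is the 250 bases before the RefSeq start on mouse build GRCm38.p6, 5′ to 3′ on the gene's strand, with the 4-letter core GGAA, or TTCC on the opposite strand, in capitals, because PU.1 and its relatives bind around that core. The 30 bases after the RefSeq start were found in GENCODE transcripts of Chil3 and Cybb but not of Mpeg1.
Chil3 (chr3:106167565-106167814, minus strand): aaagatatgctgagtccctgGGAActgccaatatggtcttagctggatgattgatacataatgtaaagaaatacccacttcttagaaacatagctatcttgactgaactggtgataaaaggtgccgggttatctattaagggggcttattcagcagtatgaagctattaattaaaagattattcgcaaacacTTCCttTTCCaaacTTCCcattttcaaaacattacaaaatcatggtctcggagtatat
Cybb (chrX:9469325-9469574, minus strand): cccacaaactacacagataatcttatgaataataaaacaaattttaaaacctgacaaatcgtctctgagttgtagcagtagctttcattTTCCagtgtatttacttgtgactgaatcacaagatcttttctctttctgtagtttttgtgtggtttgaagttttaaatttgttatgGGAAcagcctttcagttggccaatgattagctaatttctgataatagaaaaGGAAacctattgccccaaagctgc
Mpeg1 (chr19:12460520-12460769, plus strand): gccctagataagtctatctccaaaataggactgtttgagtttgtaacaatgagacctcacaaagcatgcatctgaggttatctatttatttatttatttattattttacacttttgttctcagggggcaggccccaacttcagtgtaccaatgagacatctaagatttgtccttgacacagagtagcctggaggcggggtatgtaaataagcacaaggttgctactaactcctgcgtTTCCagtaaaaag
The core stood 4 times in the Chil3 window, 3 times in that of Cybb and 1 time in that of Mpeg1, and 93.5% of all 32851 windows of this length hold it, so its presence sets nothing apart. The longer 8-letter motif GAGGAAGT, searched on both strands and containing the core, was in none of the 3 windows. It was found in 3 of the 36 members with a window (Fcgr4, Spp1 and Selenop), or 8.33%, against 2.79% of the 27025 genes with a window. These matches are descriptions of letters only.

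Genes used by leukocytes at large fell and rose as a block: all 6 members of this kind were called lower in Experiment A and higher in Experiment B. Ptprc, the CD45 phosphatase on the surface of blood-derived cells, measured 9.01, 8.92, 8.89 and 9.01 in WT tumors and 6.69, 6.71, 6.27 and 6.87 in the KEAP1-KO group of Experiment A. Its values were 7.22, 7.69, 7.29 and 7.58 in KEAP1-KO tumors and 8.62, 8.44, 8.64 and 8.15 in the DKO group of Experiment B. Neither pair of groups overlapped, and Ptprc fell by 2.32 ± 0.14 (adjusted p = 2.44e-08) (difference ± SE on the log2 scale, here and below) in A and rose by 1.02 ± 0.14 (adjusted p = 0.000178) in B. The Ptprc row is a retained intron that holds 67.1% of the reads listed for the gene. Cd52, a small surface glycoprotein of lymphocytes and macrophages, measured 7.24, 6.98, 6.83 and 6.71 in WT tumors and 3.56, 3.29, 4.05 and 4.14 in the KEAP1-KO group of Experiment A. Cd52 then reached 5.28, 4.44, 5.02 and 5.48 in KEAP1-KO tumors and 6.48, 6.63, 6.51 and 6.12 in the DKO group of Experiment B. The groups again stood apart in both experiments, and Cd52 fell by 3.18 ± 0.23 (adjusted p = 1.7e-07), among the 4 largest changes of the members, and rose by 1.38 ± 0.23 (adjusted p = 0.00106). The other 4 were the tetraspanin Cd53, the actin-binding Coro1a and Lcp1, and the lysosomal Laptm5, with differences from -1.81 (Cd53) to -2.70 (Coro1a) in A and from 0.83 (Laptm5) to 1.49 (Coro1a) in B.

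Spi1, the PU.1 gene, measured 7.85, 7.69, 7.37 and 7.29 in WT tumors and 5.57, 5.81, 6.16 and 5.77 in the KEAP1-KO group of Experiment A. Its levels were 6.30, 6.49, 6.19 and 6.28 in KEAP1-KO tumors and 7.41, 7.08, 7.33 and 6.93 in the DKO group of Experiment B. There was no overlap in either experiment, and Spi1 fell by 1.72 ± 0.15 (adjusted p = 1.44e-06) and rose by 0.87 ± 0.15 (adjusted p = 0.00159).

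Of the 12 adhesion and identity genes, 11 fell in Experiment A and 6 rose in Experiment B. Adgre1 encodes F4/80, the surface protein most used to recognise mouse macrophages. It measured 8.52, 8.24, 8.18 and 7.76 in WT tumors and 6.23, 6.15, 6.24 and 6.61 in the KEAP1-KO group of Experiment A. It came to 7.04, 7.01, 6.91 and 7.30 in KEAP1-KO tumors and 8.04, 7.76, 8.53 and 7.63 in the DKO group of Experiment B. Both comparisons separated the tumors fully, and Adgre1 fell by 1.87 ± 0.19 (adjusted p = 4.7e-06) and rose by 0.92 ± 0.19 (adjusted p = 0.0047). Itgam, the CD11b integrin chain of myeloid cells, measured 10.26, 10.32, 10.21 and 9.96 in WT tumors and 7.71, 7.57, 7.62 and 8.03 in the KEAP1-KO group of Experiment A. In Experiment B it measured 8.38, 8.71, 8.62 and 8.71 in KEAP1-KO tumors and 10.08, 10.08, 10.13 and 9.67 in the DKO group of Experiment B. Itgam had the smallest adjusted p of the members in both experiments, falling by 2.46 ± 0.12 (adjusted p = 3.99e-09) and rising by 1.39 ± 0.12 (adjusted p = 2.98e-06). Its integrin partner Itgb2 fell by 1.60 ± 0.14 (adjusted p = 1.18e-06) and rose by 0.99 ± 0.14 (adjusted p = 0.00024), and the "don't eat me" receptor Sirpa fell by 2.06 ± 0.16 (adjusted p = 3.04e-07) and rose by 0.66 ± 0.16 (adjusted p = 0.0147). The Sirpa rise passed the threshold with all 8 tumors but not without DKO replicate 3 or KEAP1-KO replicate 3 (adjusted p = 0.0524 and 0.0541).

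Mrc1, the mannose receptor CD206 of resident and alternatively activated macrophages, was called in Experiment A and not in Experiment B. It measured 11.71, 11.75, 11.81 and 11.30 in WT tumors and 10.40, 10.73, 10.50 and 10.73 in the KEAP1-KO group of Experiment A. Its values were 11.11, 11.35, 11.21 and 11.26 in KEAP1-KO tumors and 11.67, 11.53, 11.54 and 11.22 in the DKO group of Experiment B. Mrc1 fell by 1.06 ± 0.12 (adjusted p = 1.31e-05) with no overlap in A, whereas in B the groups overlapped and the difference was 0.25 ± 0.12 (adjusted p = 0.232), with a 95% interval of 0.0 to 0.50. After quantile normalization the Mrc1 difference in B was 0.43 (adjusted p = 0.0304). Folr2, a folate receptor of resident macrophages, had the same form, with -1.13 ± 0.20 (adjusted p = 0.00117) in A and 0.32 ± 0.20 (adjusted p = 0.427) in B. Aif1, an actin-bundling protein used as a macrophage and microglia marker, measured 5.38, 5.55, 5.24 and 5.25 in WT tumors and 3.26, 3.11, 2.79 and 3.97 in the KEAP1-KO group of Experiment A. It reached 4.17, 4.31, 3.47 and 4.46 in KEAP1-KO tumors and 4.76, 3.61, 4.82 and 3.92 in the DKO group of Experiment B. Aif1 fell by 2.07 ± 0.31 (adjusted p = 0.000256) without overlap, and its difference in B was 0.17 ± 0.31 (adjusted p = 0.83), among the 4 smallest, with overlapping groups.

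Cd163, the hemoglobin scavenger receptor of tissue macrophages, measured 7.67, 6.56, 6.77 and 5.84 in WT tumors and 5.42, 6.29, 6.65 and 6.55 in the KEAP1-KO group of Experiment A. Its values in the second experiment were 6.96, 7.03, 6.45 and 6.63 in KEAP1-KO tumors and 7.68, 7.16, 6.83 and 6.35 in the DKO group of Experiment B. The groups overlapped in both, and the differences were -0.49 ± 0.36 (adjusted p = 0.458) and 0.24 ± 0.36 (adjusted p = 0.786). The sialic acid receptor Cd33 fell by 1.0 ± 0.24 (adjusted p = 0.00945), with overlap, and rose by 0.81 ± 0.24 (adjusted p = 0.0441), without. Leaving out any 1 of the 8 tumors of Experiment B took the adjusted p of Cd33 to between 0.0515 and 0.12, and with only the groups compared in the fit its fall in A had an adjusted p of 0.0644.

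All 7 Fc receptor and adaptor genes fell in Experiment A, and 3 rose in Experiment B. Fcgr1, the high-affinity IgG receptor, measured 7.55, 7.70, 7.03 and 6.87 in WT tumors and 4.71, 4.34, 4.60 and 4.36 in the KEAP1-KO group of Experiment A. It then measured 5.49, 5.40, 4.77 and 5.92 in KEAP1-KO tumors and 7.26, 6.97, 7.76 and 6.90 in the DKO group of Experiment B. The separation was complete both times, and Fcgr1 fell by 2.78 ± 0.25 (adjusted p = 1.39e-06) and rose by 1.83 ± 0.25 (adjusted p = 0.000169). Fcgr2b, the inhibitory member of the family, measured 9.44, 9.39, 9.57 and 9.22 in WT tumors and 7.88, 8.11, 7.86 and 8.42 in the KEAP1-KO group of Experiment A. Its levels were 8.60, 8.89, 8.76 and 8.80 in KEAP1-KO tumors and 8.91, 9.03, 9.17 and 8.65 in the DKO group of Experiment B. It fell by 1.33 ± 0.13 (adjusted p = 3.28e-06) without overlap, and in B the groups overlapped with a difference of 0.18 ± 0.13 (adjusted p = 0.493). The activating receptors Fcgr3 and Fcgr4 fell, with differences of -1.88 ± 0.12 (adjusted p = 6.15e-08) and -2.30 ± 0.27 (adjusted p = 2.1e-05). Fcgr3 rose by 0.77 ± 0.12 (adjusted p = 0.000695), while the difference for Fcgr4 was 0.86 ± 0.27 (adjusted p = 0.058), a value that passed the threshold without DKO replicate 2 (adjusted p = 0.032). These receptors have similar sequences, and reads shared between them could be split differently by another count.

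Of the 2 signalling adaptors, 1 was called in Experiment B. Fcer1g, the common gamma chain, fell by 1.87 ± 0.13 (adjusted p = 1.17e-07) and rose by 0.71 ± 0.13 (adjusted p = 0.00224). Tyrobp, known as DAP12 and paired with Trem2 among others, measured 7.21, 7.64, 7.31 and 7.78 in WT tumors and 5.73, 3.85, 5.71 and 6.11 in the KEAP1-KO group of Experiment A. Its values were 5.88, 6.47, 6.51 and 6.77 in KEAP1-KO tumors and 6.80, 6.52, 6.65 and 5.25 in the DKO group of Experiment B. KEAP1-KO replicate 2 of Experiment A and DKO replicate 4 were the low tumors of their groups. Tyrobp fell by 2.13 ± 0.42 (adjusted p = 0.00244) without overlap in A. In B its difference was -0.10 ± 0.42 (adjusted p = 0.934), with a 95% interval of -1.0 to 0.79 and overlapping groups, and without DKO replicate 4 it was 0.25 (adjusted p = 0.814).

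Among 9 pattern-recognition and scavenger receptors, 8 were tested, 6 fell in Experiment A and 5 rose in Experiment B. Tlr2, a sensor of bacterial lipoproteins, fell by 1.90 ± 0.20 (adjusted p = 7.37e-06) and rose by 1.07 ± 0.20 (adjusted p = 0.00249). Tlr7, a sensor of single-stranded RNA, fell by 2.0 ± 0.23 (adjusted p = 2.01e-05) and rose by 0.99 ± 0.23 (adjusted p = 0.0123). Clec7a, the beta-glucan receptor Dectin-1, measured 5.90, 5.64, 5.61 and 6.45 in WT tumors and 3.81, 3.29, 3.43 and 3.88 in the KEAP1-KO group of Experiment A. It measured 3.0, 3.63, 3.33 and 4.22 in KEAP1-KO tumors and 5.20, 6.15, 5.62 and 5.76 in the DKO group of Experiment B. Within each experiment the groups did not overlap, and Clec7a fell by 2.30 ± 0.28 (adjusted p = 3.18e-05) and rose by 2.14 ± 0.28 (adjusted p = 0.000117). The Dectin-2 gene Clec4n, by contrast, fell by 1.72 ± 0.16 (adjusted p = 2.73e-06) and had a difference of 0.19 ± 0.16 (adjusted p = 0.598) in B. Msr1, the class A scavenger receptor, fell by 2.0 ± 0.15 (adjusted p = 2.4e-07) and rose by 0.60 ± 0.15 (adjusted p = 0.0199), the latter lost without any 1 of 5 of the 8 tumors (adjusted p between 0.0506 and 0.066). The TLR4 co-factor homologue Ly86 fell by 1.78 ± 0.24 (adjusted p = 9.1e-05), with 0.61 ± 0.24 (adjusted p = 0.148) in B. Marco, a scavenger receptor of a subset of macrophages, lay between 2.0 and 3.80 in the 16 tumors, near the floor, and no difference was detectable at this depth.

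The 4 genes of oxidase, lysozyme and pore formation fell in Experiment A and rose in Experiment B. Lyz2, the lysozyme of myeloid cells, measured 11.72, 11.82, 11.82 and 11.14 in WT tumors and 9.80, 9.89, 9.66 and 10.11 in the KEAP1-KO group of Experiment A. Its levels were 10.67, 10.73, 10.82 and 10.90 in KEAP1-KO tumors and 11.90, 11.66, 11.93 and 11.42 in the DKO group of Experiment B. WT replicate 4 was the low tumor of its group, yet within each experiment the groups did not overlap. Lyz2 fell by 1.76 ± 0.15 (adjusted p = 7.29e-07) and rose by 0.95 ± 0.15 (adjusted p = 0.000556). Cybb, the catalytic subunit of the phagocyte NADPH oxidase, fell by 2.99 ± 0.20 (adjusted p = 8.42e-08) and rose by 1.24 ± 0.20 (adjusted p = 0.000767), and Ncf1, a cytosolic subunit of the same enzyme, fell by 1.72 ± 0.15 (adjusted p = 9.34e-07) and rose by 1.18 ± 0.15 (adjusted p = 7.37e-05). Mpeg1, the pore-forming perforin-2, fell by 2.46 ± 0.17 (adjusted p = 9.1e-08) and rose by 1.20 ± 0.17 (adjusted p = 0.000197).

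The monocyte and Ms4a genes held the largest fall. Ms4a4c, a membrane gene of inflammatory monocytes, measured 7.14, 7.11, 6.03 and 5.95 in WT tumors and 2.87, 2.0, 3.14 and 3.15 in the KEAP1-KO group of Experiment A. It measured 3.70, 4.44, 3.33 and 4.39 in KEAP1-KO tumors and 6.17, 5.97, 6.87 and 6.21 in the DKO group of Experiment B. Groups of the same experiment did not overlap, and Ms4a4c fell by 3.77 ± 0.36 (adjusted p = 2.55e-06), the largest change of the 47 tested members in A, and rose by 2.34 ± 0.36 (adjusted p = 0.000457). In normalized counts the Ms4a4c means were 97.7 in WT tumors, 3.26 and 12.4 in KEAP1-KO tumors of A and B, and 77.5 in DKO tumors. Plac8, an abundant gene of Ly6C-high monocytes, measured 6.66, 6.59, 5.92 and 6.01 in WT tumors and 4.12, 3.11, 2.98 and 3.56 in the KEAP1-KO group of Experiment A. Its values were 3.17, 3.52, 2.59 and 4.04 in KEAP1-KO tumors and 6.55, 5.79, 6.48 and 5.60 in the DKO group of Experiment B. It fell by 2.85 ± 0.33 (adjusted p = 2.24e-05) and rose by 2.78 ± 0.33 (adjusted p = 5.21e-05) with no overlap, and its means in the KEAP1-KO groups were 3.44 ± 0.52 in A and 3.33 ± 0.61 in B (SD, n = 4). Ms4a6c fell by 2.04 ± 0.25 (adjusted p = 3.07e-05) and rose by 0.85 ± 0.25 (adjusted p = 0.0436), a rise lost without DKO replicate 1, 2 or 3 or without KEAP1-KO replicate 1 or 3 (adjusted p between 0.0657 and 0.131). Ms4a7, a gene of mature macrophages, fell by 1.72 ± 0.19 (adjusted p = 9.88e-06) and differed by 0.45 ± 0.19 (adjusted p = 0.171) in B. Ms4a genes lie in a family of close copies, and Chil3 and Lyz2 also have near-identical neighbours, so their counts carry that uncertainty.

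Of the 5 activation and secreted genes, 4 fell in Experiment A and 3 rose in Experiment B. Nos2, the inducible nitric oxide synthase of classically activated macrophages, measured 7.73, 7.08, 7.66 and 9.43 in WT tumors and 4.94, 3.96, 3.29 and 4.82 in the KEAP1-KO group of Experiment A. It measured 4.0, 3.92, 5.06 and 3.70 in KEAP1-KO tumors and 6.79, 7.15, 6.85 and 7.73 in the DKO group of Experiment B. WT replicate 4 was the highest of the 16 tumors, and within each experiment the groups did not overlap. Nos2 fell by 3.72 ± 0.47 (adjusted p = 4.35e-05) and rose by 2.96 ± 0.47 (adjusted p = 0.00063). In normalized counts its means were 306 in WT, 17.1 and 15.4 in KEAP1-KO of A and B, and 141 in DKO tumors. Chil3, the chitinase-like Ym1 that monocytes and alternatively activated macrophages secrete, measured 6.73, 7.04, 7.14 and 6.34 in WT tumors and 4.12, 3.29, 4.28 and 3.43 in the KEAP1-KO group of Experiment A. Its levels came to 3.80, 4.50, 3.47 and 3.27 in KEAP1-KO tumors and 6.99, 7.10, 7.36 and 6.22 in the DKO group of Experiment B. Both separations were complete, and Chil3 fell by 3.03 ± 0.31 (adjusted p = 5.82e-06) and rose by 3.15 ± 0.31 (adjusted p = 7.3e-06), the largest rise of the members. Nos2 and Chil3, often placed at opposite ends of macrophage activation, thus moved the same way.

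Apoe, the lipid carrier of tissue macrophages, measured 6.84, 6.70, 7.19 and 4.84 in WT tumors and 4.52, 4.63, 4.21 and 5.49 in the KEAP1-KO group of Experiment A. It measured 6.08, 5.69, 5.60 and 6.75 in KEAP1-KO tumors and 6.10, 5.92, 6.17 and 5.41 in the DKO group of Experiment B. WT replicate 4 lay inside the range of the KEAP1-KO tumors. Apoe fell by 1.68 ± 0.43 (adjusted p = 0.0152), a call lost without WT replicate 1 or 3 (adjusted p = 0.0508 and 0.0565), and in B the groups overlapped with a difference of -0.13 ± 0.43 (adjusted p = 0.913) and a 95% interval of -1.04 to 0.78. Without KEAP1-KO or DKO replicate 4 that difference was 0.11 or 0.03 (adjusted p = 0.938 and 0.985). Selenop, a selenoprotein that resident macrophages make, fell by 0.90 ± 0.16 (adjusted p = 0.00124) in A and differed by -0.24 ± 0.16 (adjusted p = 0.465) in B.

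**Figure D3:**
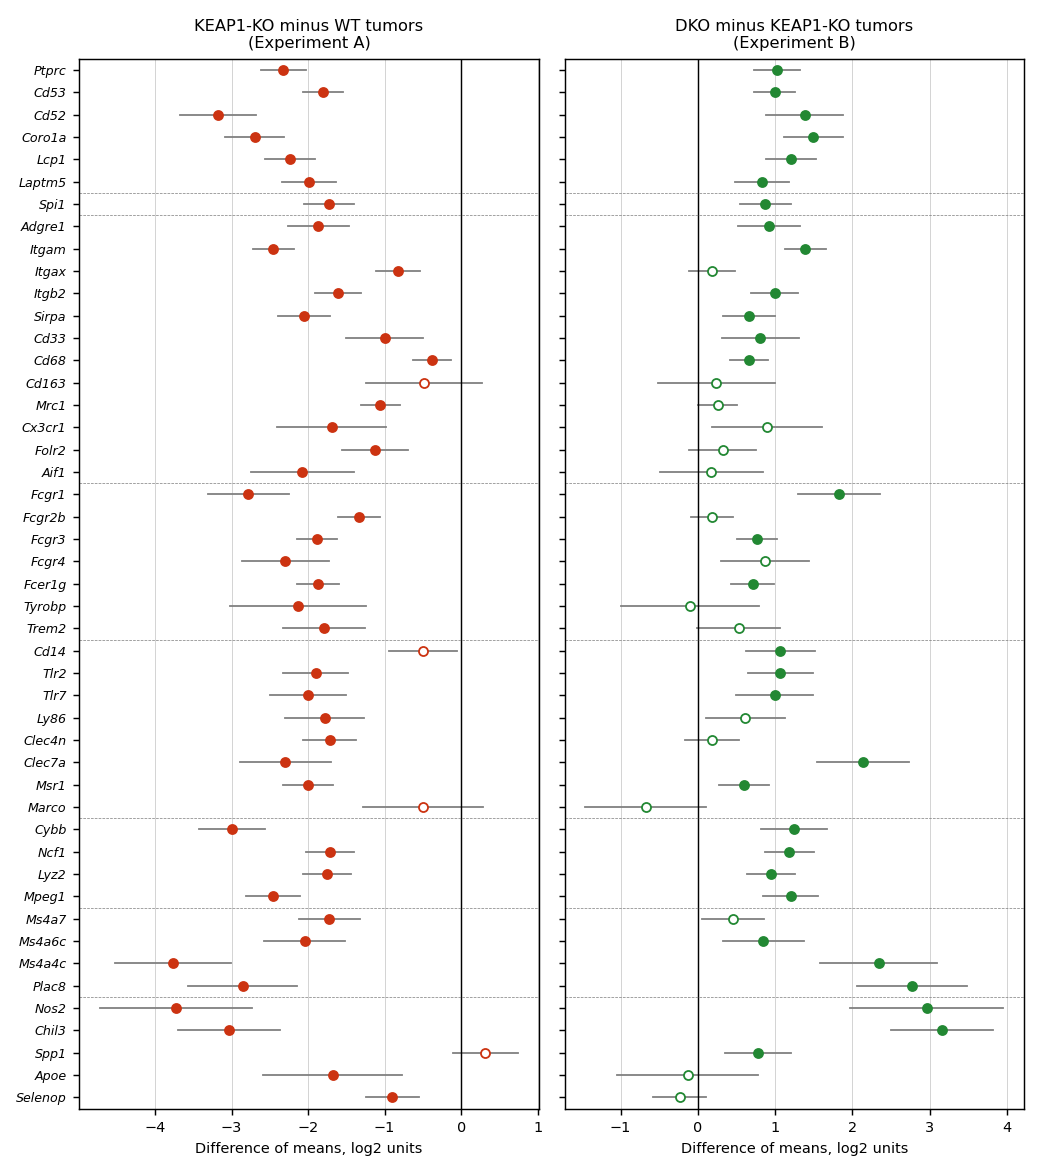
Difference of group means on the log2 scale for the 47 tested members, ordered by role with dashed lines between roles; horizontal lines are 95% intervals, filled circles passed an adjusted p of 0.05 and open circles did not. On the left 46 of 47 points lie below 0, and on the right 43 of 47 lie above it.

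The size of the rise in Experiment B was then set against the size of the fall in Experiment A, by testing for each member whether DKO and WT tumors differ once each is taken relative to the KEAP1-KO tumors of its own experiment. The value was negative, the difference in B falling short of the fall in A, for 23 members, 8 of which had no called rise in B, and positive for 1, Spp1, which had no called fall (limma, adjusted p under 0.05), against 3.2% and 1.94% of all rows. The Spp1 call was lost without any 1 of 10 of the 16 tumors (adjusted p between 0.0582 and 0.0715). The median over members was -1.07. All 6 leukocyte-wide genes and 5 of the 7 Fc receptor and adaptor genes were among the 23, Ptprc with -1.30 ± 0.20 (adjusted p = 0.00108), Tyrobp with -2.24 ± 0.59 (adjusted p = 0.0395), Clec4n with -1.53 ± 0.23 (adjusted p = 0.00104) and Mrc1 with -0.80 ± 0.17 (adjusted p = 0.00979). For Chil3 the value was 0.12 ± 0.44 (adjusted p = 0.928), for Plac8 -0.08 ± 0.47 (adjusted p = 0.958), for Clec7a -0.16 ± 0.40 (adjusted p = 0.888) and for Nos2 -0.76 ± 0.66 (adjusted p = 0.608). Their 95% intervals were -0.82 to 1.06, -1.09 to 0.93, -1.0 to 0.68 and -2.17 to 0.64, so differences of up to about 1 log2 unit, and more for Nos2, are not resolved.

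This value is the direct difference of DKO and WT tumors minus the difference between the KEAP1-KO groups, and each of those was computed as well. Values were higher in the KEAP1-KO tumors of B than in those of A for 40 of 47 members, with a median of 0.76 against 0.01 over all rows. Only 52 of all 34215 rows (0.152%) were called higher in this comparison, and 12 of them were members: Ptprc, Cd52, Lcp1, Itgam, Sirpa, Mrc1, Fcgr2b, Fcgr3, Msr1, Cybb, Lyz2 and Mpeg1. They are 23.1% of the called rows and 25.5% of the tested members. The largest of these differences were 1.30 ± 0.23 (adjusted p = 0.0458) for Cd52, 1.19 ± 0.20 (adjusted p = 0.0367) for Cybb and 1.03 ± 0.15 (adjusted p = 0.0141) for Msr1. The calls are fragile: 0 members passed without KEAP1-KO replicate 1 of A or replicate 4 of B, 3 without replicate 2 of A, 5 without replicate 3 of A, and 6, 2 and 6 without replicates 1, 2 and 3 of B. In 29 members the 4 tumors of B all lay above the 4 of A, a separation that 2.55% of all rows showed. Genotype is the same in these groups, while flank, host mice and experiment differ and cannot be told apart.

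Not all members carried that gap. For 6 members the lowest of the 4 group means was in the KEAP1-KO tumors of Experiment B (Cd33, Cd14, Clec7a, Plac8, Nos2 and Chil3), and their median difference between the KEAP1-KO groups was -0.07. Its negative sign follows from the way the 6 were picked. The same 6 had median differences of -2.58 in A and 2.46 in B. The 14 members that fell in A without a call in B, among them Mrc1, Apoe, Selenop, Folr2, Aif1, Tyrobp, Fcgr2b and Ms4a7, had medians of -1.71 in A, 0.22 in B and 0.79 between the KEAP1-KO groups. The 29 members that fell in A and rose in B had a median of 0.79 between the KEAP1-KO groups as well, so that gap does not set the 14 apart. All these groups of members were formed after the values were seen, so the medians are descriptions and were not tested against each other.

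**Figure D4:**
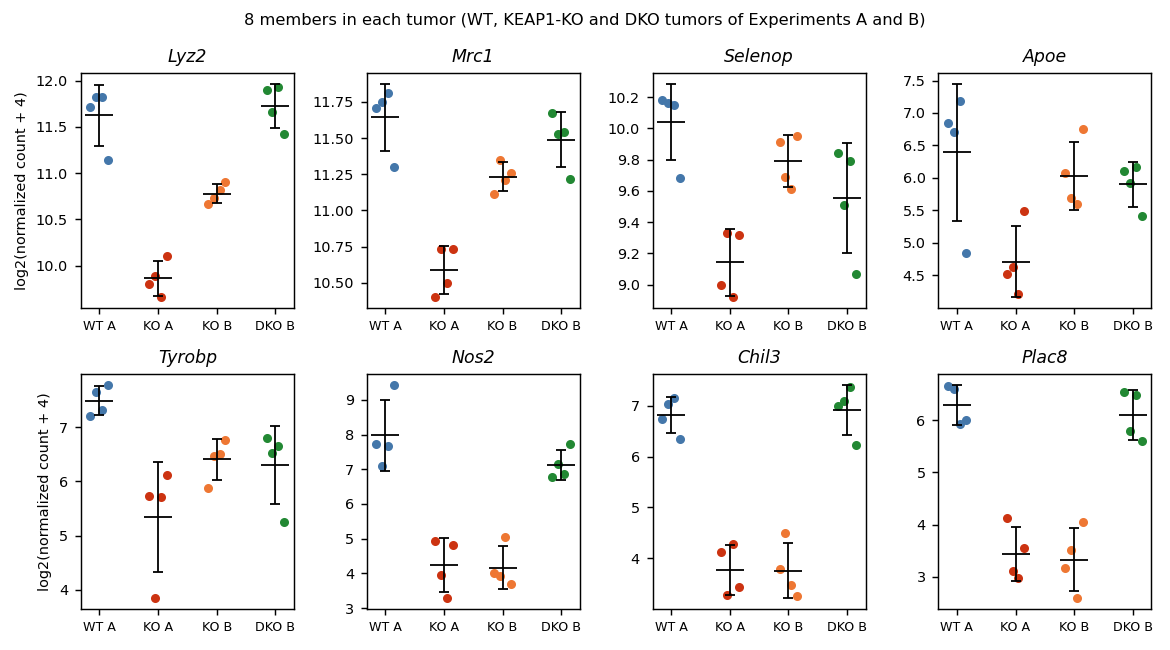
Log2(normalized count + 4) of 8 members in each tumor, 4 points a group with the mean ± SD. For Lyz2, Mrc1, Selenop, Apoe and Tyrobp the KEAP1-KO mean is higher in Experiment B than in A, while for Nos2, Chil3 and Plac8 the KEAP1-KO groups overlap each other and lie below WT and DKO.

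DKO tumors were also compared with WT tumors directly, a comparison across experiments added after the data were seen. Of the 47 members, 6 were lower in DKO tumors (Ptprc, Itgax, Aif1, Fcgr2b, Fcer1g and Clec4n) and 1 higher (Spp1), and 40 were not called. All rows gave 5.99% lower and 4.57% higher. The median was -0.31 and the score differed by -0.35. For Spp1 the DKO tumors were higher by 1.06 ± 0.20 (adjusted p = 0.00257), and for Clec4n and Aif1 the differences were -0.71 ± 0.16 (adjusted p = 0.00977) and -1.08 ± 0.31 (adjusted p = 0.0384). The 7 calls fell to 3 without DKO replicate 4 or WT replicate 1 or 2, and to 4 without DKO replicate 2 or WT replicate 3. From high to low, 32 members had the order WT, DKO, KEAP1-KO of B and KEAP1-KO of A, and 40 had their lowest mean in the KEAP1-KO tumors of A.

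Tumors within a group also differed in order. WT replicate 4 was the lowest of its group for 35 of 48 members, and DKO replicate 4 likewise for 35. KEAP1-KO replicate 4 was the highest of its group for 23 members in Experiment A and for 25 in Experiment B. DKO replicate 3 was the highest of its group for 29 members, and KEAP1-KO replicate 3 of Experiment B the lowest for 22. Over all rows tested, a tumor was the highest of its group for 22.6% to 28.7% of rows and the lowest for 25.5% to 30.7%. Nqo1 in the 4 tumors numbered 4 was 7.06, 5.25, 12.51 and 12.23, so each kept the level of its genotype.

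The 8 members that reached the 10% limit in cultured 3LL cells are given apart, because their tumor values can include RNA of the cancer cells. Cd68, a lysosomal glycoprotein of macrophages, measured 9.27, 9.27, 9.06 and 8.91 in WT tumors and 8.90, 8.81, 8.44 and 8.82 in the KEAP1-KO group of Experiment A. Its values were 8.83, 8.87, 8.58 and 8.83 in KEAP1-KO tumors and 9.19, 9.51, 9.56 and 9.50 in the DKO group of Experiment B. It fell by 0.38 ± 0.12 (adjusted p = 0.041), the smallest fall that passed, and leaving out any 1 of 6 of the 8 tumors ended that call (adjusted p between 0.0598 and 0.121). It rose by 0.66 ± 0.12 (adjusted p = 0.00164). In culture Cd68 stood at 4.45 ± 0.62 in WT, 6.83 ± 0.07 in KEAP1-KO and 5.57 ± 0.08 in DKO cells (SD, n = 4), so that KEAP1-KO cells exceeded WT cells by 2.38 ± 0.24 (adjusted p = 1.8e-05) and the difference of DKO from KEAP1-KO cells was -1.26 ± 0.24 (adjusted p = 0.00452). Cultured cells and tumors thus moved in opposite directions. How far cancer-cell Cd68 offsets the change of other cells in the tumor was not tested.

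Only 8 members passed the filter in the cell libraries, namely Itgax, Itgb2, Cd68, Cd14 and Spp1 of this set and 3 of the score (Cd33, Fcgr2b and Lyz2), whose highest cell mean was 6.38%, 2.70% and 0.258% of the tumor mean. In KEAP1-KO against WT cells 2 rose, Cd68 and Spp1, and 0 fell, with 8.13% of 29744 rows called higher. In DKO against KEAP1-KO cells 1 rose, Cd14, and 2 fell, Cd68 and Itgb2, against 3.98% and 4.85% of rows. Spp1, the secreted phosphoprotein osteopontin, measured 4.33, 4.80, 4.54 and 4.88 in WT tumors and 4.52, 5.04, 5.20 and 5.05 in the KEAP1-KO group of Experiment A. It measured 4.90, 4.86, 4.72 and 5.20 in KEAP1-KO tumors and 5.51, 5.68, 5.45 and 6.14 in the DKO group of Experiment B. The groups overlapped in A, with 0.32 ± 0.20 (adjusted p = 0.372), and stood apart in B, with a rise of 0.77 ± 0.20 (adjusted p = 0.0221) that was lost without KEAP1-KO replicate 1, 2 or 3 or DKO replicate 4 (adjusted p between 0.0506 and 0.0757). The Spp1 mean over the 12 cultures was 42.7% of its tumor mean, and that of the DKO cells 59.7%, and KEAP1-KO cells exceeded WT cells by 1.35 ± 0.37 (adjusted p = 0.0274).

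Cd14, the lipopolysaccharide co-receptor, measured 8.24, 7.93, 8.31 and 8.95 in WT tumors and 8.03, 7.99, 7.39 and 8.02 in the KEAP1-KO group of Experiment A. It measured 7.29, 7.30, 7.57 and 7.87 in KEAP1-KO tumors and 8.24, 8.74, 8.54 and 8.79 in the DKO group of Experiment B. Groups overlapped in A with -0.50 ± 0.21 (adjusted p = 0.143), and in B the DKO tumors were all higher, by 1.07 ± 0.21 (adjusted p = 0.00336). DKO cells in culture were higher than KEAP1-KO cells by 0.89 ± 0.08 (adjusted p = 9.91e-06), a change of the same direction and about the same size as in the tumors, and the Cd14 mean of the DKO cells was 68.5% of the tumor mean, and that of all 12 cultures 45.2%. Its part in the tumor difference was not tested. Itgax, the CD11c integrin chain, lay at 6.62 ± 0.13, 6.65 ± 0.19 and 6.73 ± 0.16 in WT, KEAP1-KO and DKO cells. In the tumors Itgax fell by 0.83 ± 0.14 (adjusted p = 0.000626) and differed by 0.18 ± 0.14 (adjusted p = 0.524) in B.

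Cx3cr1, the fractalkine receptor of patrolling monocytes, measured 4.05, 4.40, 4.54 and 3.54 in WT tumors and 2.87, 2.0, 2.57 and 2.31 in the KEAP1-KO group of Experiment A. It measured 3.17, 2.76, 3.18 and 2.89 in KEAP1-KO tumors and 4.76, 3.84, 3.94 and 3.05 in the DKO group of Experiment B. It fell by 1.69 ± 0.33 (adjusted p = 0.00252) without overlap, and in B the difference was 0.89 ± 0.33 (adjusted p = 0.124), which passed without DKO replicate 4 (1.18, adjusted p = 0.0345). Cx3cr1 and Tlr4 met the 10% rule although they stayed under 5 counts in each culture, because their tumor levels are low as well. Trem2, a lipid receptor that signals through Tyrobp, was at 2.0 in all 4 WT and all 4 DKO cultures and at 3.36 ± 0.24 in KEAP1-KO cells. In tumors it fell by 1.79 ± 0.25 (adjusted p = 0.000131) and differed by 0.53 ± 0.25 (adjusted p = 0.255) in B.

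Across all 47 tested members, the KEAP1-KO effect was more negative in tumors than in cells for 42 (limma, adjusted p under 0.05), against 3.88% of 37246 rows, and 37 of these belong to the 40 of the score and 5 to the set given apart. The 40 are low in culture by the way they were chosen, so for them this value largely repeats the difference in Experiment A. In the set given apart, Itgb2, Cd68, Cx3cr1 and Trem2 reached the 10% limit in KEAP1-KO cells alone, so the limit itself favoured a negative value for them. Their differences, -3.16 for Trem2, -2.77 for Cd68, -2.58 for Itgb2 and -1.96 for Cx3cr1, are therefore descriptions. Itgax, which exceeded the limit in each of the 3 kinds of cells, had -0.85 ± 0.18 (adjusted p = 0.00427). The test was not passed for Cd14 or Spp1.

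**Figure D5:**
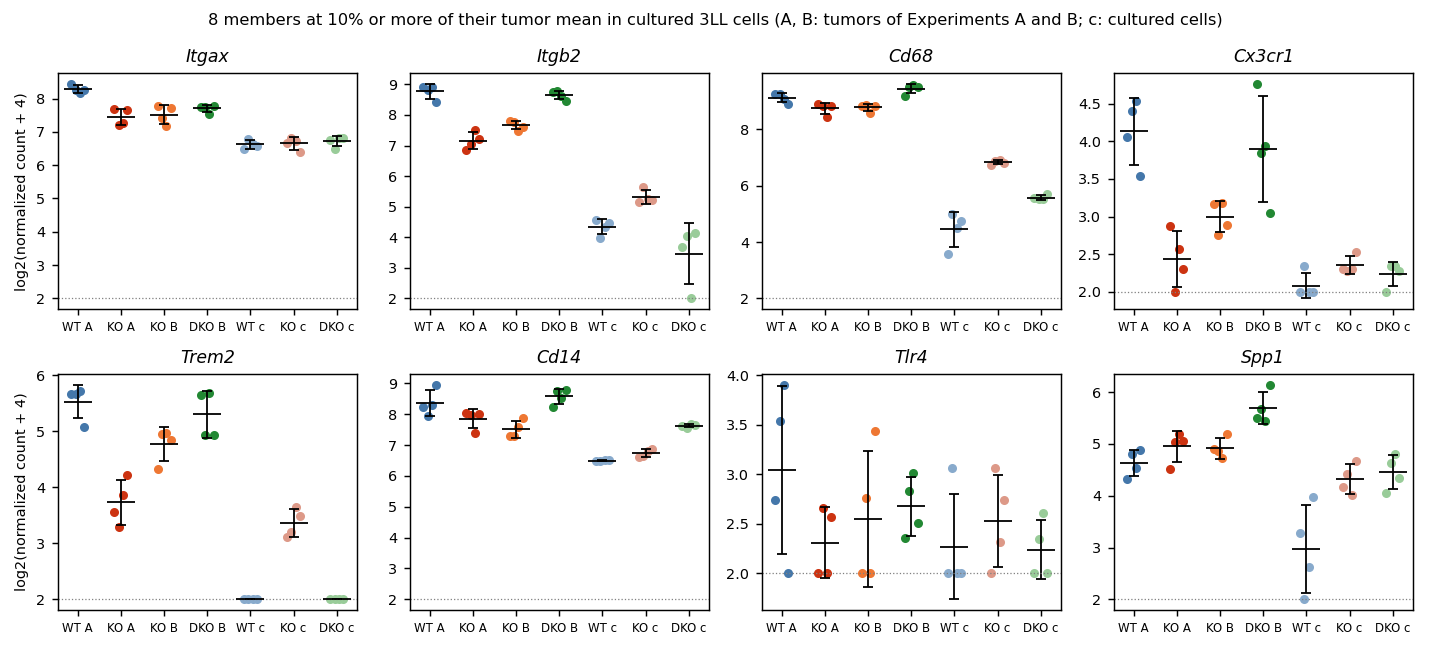
Log2(normalized count + 4) of the 8 members that reached the 10% limit in culture, 1 point per library in the 4 tumor groups and 3 cell groups, with the mean ± SD of 4 and a dotted line at 2 for no reads; the vertical axes differ between panels. Cd68 is highest in KEAP1-KO among the cultured cells, Cd14 is highest in DKO in both settings, and Cx3cr1 and Tlr4 sit near the floor in culture.

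A further list of 32 macrophage and monocyte genes outside the 48 was examined in the same fit. Of 30 listed, 29 fell in Experiment A, 21 rose in Experiment B, and 8 were higher in KEAP1-KO tumors of B than of A, with medians of -1.79, 0.94 and 0.61. The summed level of this list ran from 8052 to 10914 normalized counts in WT tumors, 2814 to 3148 and 4177 to 4771 in KEAP1-KO tumors of A and B, and 7896 to 10377 in DKO tumors. The monocyte chemokine receptor Ccr2 fell by 3.75 and Slfn4, a gene of inflammatory monocytes, fell by 3.45, and in B Ly6c2, the Ly6C surface antigen of such monocytes, rose by 3.62 and Slfn4 by 3.25. These are of the size of Nos2, Chil3, Plac8 and Ms4a4c.

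Markers of some other cells moved beside the members. Of 8 neutrophil genes tested 6 fell in A and 3 rose in B, with medians of -1.84 and 0.96, and the collagenase Mmp8 fell by 2.71 and rose by 1.69. The neutrophil list summed to between 728 and 2285 normalized counts in WT tumors, 472 and 868 in KEAP1-KO tumors of A, 348 and 1296 in those of B, and 588 and 908 in DKO tumors, ranges that overlap, and 6 of the 8 were lower in DKO than WT tumors. Of 5 T and NK cell genes tested 3 fell and 1 rose, and the perforin gene Prf1 fell by 2.06 and rose by 1.46. Of 8 fibroblast genes 2 fell and 3 rose, and the matrix gene Dcn fell by 1.78 and rose by 2.85, while of 8 endothelial genes 0 fell in A and 1, Esam, fell in B by 0.65. Other lists went otherwise. The 4 B cell genes summed to between 34.8 and 94.3 normalized counts in WT tumors, 128 and 156 in KEAP1-KO tumors of A, 155 and 166 in those of B and 137 and 213 in DKO tumors, and the B cell factor Pax5 rose by 2.36 in A. Pax5 alone was called in A, and the median difference over the 4 genes was -0.62 in A and 0.14 in B, so the sum does not stand for the list. Of 5 skeletal muscle genes tested 0 were called in A and 2 rose in B, Acta1 by 2.96 and Des by 1.29, and their list summed to at most 280 normalized counts in the other 12 tumors and to between 93.8 and 1420 in DKO tumors. Of 5 dendritic cell genes Ccr7 fell in A and rose in B and Flt3 fell in B by 1.53, and of 3 adipocyte genes Plin4 rose in B by 1.20, while 0 of 2 keratinocyte and 0 of 5 red blood cell genes were called in either. No listed gene of any of these lists was at 0 in all 16 tumors. All 6 NRF2 target genes rose in A and fell in B, with medians of 2.22 and -3.12. The part of neutrophils, other leukocytes, fibroblasts and muscle in the members' differences was not tested.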

How the data were processed

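RNA-seq values of 28 libraries (16 tumors and 12 cell cultures) were analysed. The authors removed ribosomal RNA, prepared directional libraries, read them as 150-base pairs and quantified them with Salmon against GENCODE mouse transcripts. The log2 values were deposited without a stated formula. Their floor of 2 and their steps are those of log2(normalized count + 4): with the transform undone, 100% of low values in each library were whole reads over a single scaling factor (tolerance 0.02). The study's methods speak of TPM. How rows and genes were chosen for the table is not given in the sources used here. Groups came from the titles. The labels do not say that tumors of a group came from separate mice, so p-values measure the spread between these samples.

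Groups were compared on the deposited log2 values by limma 3.58.1 (lmFit, eBayes with trend) under R 4.3.3. A row was tested when 4 or more libraries of a fit had 5 or more normalized counts. All 4 tumor groups entered 1 fit, all 3 cell groups another and all 7 the comparison of tumors with cells. Benjamini-Hochberg adjustment covered all rows, with a threshold of 0.05. Count models were not used on these log values. The fit was tested on simulated data, where 96% of rows changed by 2 log2 units and 21% of rows changed by 1 unit were recovered among 34215 rows for KEAP1-KO against WT tumors. The simulated rows shared a single spread setting and few of them were changed, so these shares need not hold for the members. Every member symbol stood on a single row of the table, the genes of 16 members had further rows without the symbol, and the row used held at least 63.9% of the gene's normalized counts. From the named set, 1 further gene of the named set is not reported here. The members and gene lists were chosen with earlier results of these data known. Values in each tumor are given for 13 members of main roles and for those with the 4 largest and 4 smallest absolute differences in each experiment, with Clec7a added after its values were seen. Alternatives were another pseudocount (0.4), filters, normalizations, fits, summed rows and leaving out each library. RefSeq promoter windows (GRCm38.p6) matched 36 members, and protein sequences were not used here.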

Additional observations from a re-analysis of the deposited data

Results flagged for a closer look

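Of 88 groups of 4 tumors examined for a single tumor far from the other 3, 5 had a gap wider, relative to the range of the group, than Dixon's 95% critical value, and chance gives about 1 in 20. These were Lyz2 in WT replicate 4, at 11.14 against 11.72 to 11.82 in the others, Cd14 in KEAP1-KO replicate 3 of Experiment A, at 7.39 against 7.99 to 8.03, Cd68 in KEAP1-KO replicate 3 of Experiment B, at 8.58 against 8.83 to 8.87, Itgam in DKO replicate 4, at 9.67 against 10.08 to 10.13, and Cd68 in DKO replicate 1, at 9.19 against 9.50 to 9.56.

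The effect of KEAP1 loss differed between tumors of Experiment A and cultured cells for 42 of the 47 tested members, by the interaction test in limma, against 3.88% of 37246 rows called lower. For the 37 of them in the score, which were chosen to be low in culture, the value largely repeats the difference in Experiment A. The other 5 had reached the 10% limit in culture. Tumors minus cells, the difference was -0.85 for Itgax (adjusted p = 0.00427), and it was -2.58 for Itgb2, -2.77 for Cd68, -1.96 for Cx3cr1 and -3.16 for Trem2, given without a test because these 4 reached the limit in KEAP1-KO cells alone. Cx3cr1 was close to the floor in culture in both genotypes, and Trem2 was at 2.0 in each WT culture.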

How the results depend on the processing

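The 43 falls in Experiment A stayed between 40 and 43 and the 31 rises in Experiment B between 25 and 32 under each alternative, with no member in the opposite direction; leaving out a library gave 41 to 43 and 26 to 30. The 24 calls on the rise against the fall became 15 at an adjusted p under 0.01 and 19 to 29 without a library. The 12 members higher in KEAP1-KO tumors of B than of A became 3 with no filter, 0 with no trend, 1 with only the groups compared, 0 at an adjusted p under 0.01, 18 both with a mean of at least 25 normalized counts and with all rows of a gene summed, and 0 to 10 without a library. In cells the 2 calls for KEAP1-KO against WT became 4 with no filter, 1 with a pseudocount of 0.4, 4 with all rows of a gene summed, 1 at an adjusted p under 0.01 and 1 to 3 without a library, and the 3 calls for DKO against KEAP1-KO became 5 with no filter and stayed 3 without a library. The 5 calls on tumors minus cells in the set given apart became 3 with a mean of at least 25 normalized counts and 5 to 6 without a library. The 10% limit favoured a negative value for all of these 5 but Itgax, so their count is a description. The 7 direct calls of DKO against WT tumors became 4 with no trend, 4 after rescaling without the 20 highest rows (2 higher, 2 lower), 2 at an adjusted p under 0.01 and 3 to 9 without a library. The score difference in A (-2.03) was -2.21 with a pseudocount of 0.4, -1.84 with every member that has a row, and -2.11 to -1.97 without a library; that in B (0.96) was 0.88 to 1.06 without a library, and DKO minus WT (-0.35) was -0.44 to -0.25. Without a library, signs in B turned for Aif1 (-0.037 to 0.39), Tyrobp (-0.28 to 0.25) and Apoe (-0.28 to 0.11), none of them called. Other calls on single members changed with the processing. With only the groups compared, those of Cd33 (0.0644), Cd68 (0.093) and Apoe (0.0684) in A and Ms4a6c (0.0624) in B were lost; Cd68 in A and Cd33 and Ms4a6c in B were lost with no filter (0.0523, 0.0635 and 0.063) and with no trend (0.0976, 0.0714 and 0.0698), and Cd68 and Cd33 with median centring (0.0641 and 0.0504). Cd68 was lost after quantile normalization (0.0599). Calls were gained in B for Mrc1 after quantile normalization (0.0304) and for Fcgr4 with a mean of at least 25 normalized counts (0.0435), all rows summed (0.032) or rescaling without the 20 highest rows (0.0383). The values in parentheses are adjusted p. The cause of these changes was not tested.

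Same-numbered tumors did not deviate together (correlations of deviations -0.03 to 0.03), so the numbers were not used as pairs. A fit with a replicate block gave 41 calls in A, 28 in B, 17 on the rise against the fall, 2 and 3 in the cell comparisons and 6 for tumors minus cells. The block took the adjusted p of Cd68 (0.055) and Apoe (0.0742) in A and of Sirpa (0.0609), Msr1 (0.0891) and Ms4a6c (0.115) in B past the threshold. Fewer than about 5 normalized counts in most tumors limit Tlr4 and Marco. Cx3cr1 had mean counts of 14.1 in WT and 12.2 in DKO tumors, but 1.56 and 4.06 in KEAP1-KO tumors of A and B. The differences of these genes are understated near the floor.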
